A study of Saccharomyces cerevisiae with 10 samples.

Results

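The origin recognition complex (ORC), a complex of subunits Orc1 to Orc6, binds replication origins and helps load the MCM helicase onto DNA before S phase. In budding yeast it recognises a T-rich consensus sequence within autonomously replicating sequences, and an insertion helix in Orc4 reaches into the major groove of that sequence. The human and fly Orc4 proteins lack this helix, and ORC of metazoan cells is found mostly in open, nucleosome-poor chromatin without a fixed sequence. In yeast, open chromatin includes the nucleosome-depleted stretches at promoters and at origins.

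The peaks described here were found in both yeast strains of the study and lay in open chromatin. A WT ORC peak belonged to this set if it overlapped an ORC peak of the strain with Orc4-IHΔ, the Orc4 without its insertion helix, by at least 1 bp and also overlapped an ATAC-seq region by at least 1 bp. ORC peaks of the mutant were chosen in the same way against the WT list. The ATAC-seq regions were the 2716 stretches left after overlapping or touching peaks of both ATAC-seq lists were merged. Membership was thus chosen by the called intervals of the ORC and ATAC-seq lists, with no cutoff on peak height beyond that of the peak calling. The rule selected 166 of 618 WT peaks and 180 of 2219 mutant peaks, 346 of 2837 in all, and these are called shared open peaks.

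ORC was mapped by chromatin immunoprecipitation and sequencing (ChIP-seq) through a MYC tag on Orc6, and open chromatin by ATAC-seq, in which a transposase inserts adapters where DNA is accessible. All cells were MATa W303-1a carrying the alleles can1-100, leu2-3, 112, his3-11, 15, ade2-1, trp1-1 and ura3-1, together with GALS-ORC4-kanMX4 and ORC6-MYC-hphNT1. They were grown in YPD at 30 °C for 18 h or longer and then held in G2/M for about 3 h by benomyl at 20 µg/ml. The WT group carried ura3-1::ORC4-URA3 and the mutant group ura3-1::orc4-IH_delta-URA3. Each ORC list combined 2 libraries and each ATAC-seq list came from 1 library.

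In both groups the endogenous ORC4 gene was therefore under the GALS promoter, which is shut off in glucose, and the Orc4 that remained came from a copy at ura3. The labels of the ATAC-seq samples and the names of their lists contradict each other on the strain. The study's text gives each strain the number of ATAC-seq peaks that the labels give to the other strain, as the list names do, so the labels may be exchanged. Strains follow the labels here, and the merged regions do not depend on that choice. Fold enrichment, the measurement used throughout, is the ratio of ChIP or ATAC signal at a peak to its local background as given by the peak caller. The names of all ORC peaks carried library number 2, so the values read as those of the second library. With a single list per strain there was no replicate spread, no strain difference was tested, and every interval below is at the 95% level and covers counting error only. Sequencing depth is unknown from the lists, and a peak listed in 1 strain only need not be absent in the other.

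Of all WT ORC peaks, 44.8% (277 of 618) overlapped a mutant peak, and of these 59.9% (Wilson interval 54.1 to 65.5) lay in open chromatin. Of all mutant peaks, 14.0% (310 of 2219) overlapped a WT peak, and 58.1% (52.5 to 63.4) of these lay in open chromatin. Shared open peaks were therefore 26.9% (23.5 to 30.5) of the WT list and 8.11% (7.05 to 9.32) of the mutant list. They formed 166 loci. At 131 loci exactly 1 WT peak met exactly 1 mutant peak and both lay in open chromatin, and these are called pairs below. At 6 further loci of that form only 1 of the peaks reached open chromatin. The other 29 loci held several peaks, most often 1 WT peak over 2 mutant peaks, as at 20 loci. Sequences, genes and origins at these loci are not given, because the submitters' processing notes name the build sacCer2 and no genome or gene positions of that build were used here.

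The overlap threshold set the edges of the group. The smallest overlaps between strains inside it were 19 bp, between the WT peak XIV:169427-169920 and the mutant peak XIV:169279-169445, and 22 bp, between the WT peak IV:768371-768517 and the mutant peak IV:768166-768392. Just outside, the gap to the other strain was 18 bp for the mutant peak VI:19665-19928 and 20 bp between the WT peak XIII:432709-433515 and the mutant peak XIII:433536-434658. The values of these last peaks were nearly equal, with a fold enrichment of 4.92 in WT and 4.95 in the mutant. For open chromatin, the smallest overlap with a region inside the group was 19 bp in WT (IV:913610-914654) and 34 bp in the mutant (VIII:381638-381900). The nearest peaks left out lay 5 bp (WT, VII:277935-278419) and 3 bp (mutant, II:6455-6800) from a region. Of the 111 shared WT peaks left out of open chromatin, 45 lay within 500 bp of a region.

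The shared open peaks had similar median fold enrichments in the lists of both strains but differently shaped distributions. In WT the median was 3.30 (interval of the median 3.02 to 4.09), with quartiles of 2.52 and 6.72 and a range of 1.26 to 11.1 over the 166 peaks. In the mutant the median was 3.40 (3.23 to 3.71), with quartiles of 2.73 and 4.46 and a range of 1.55 to 12.9 over the 180 peaks. Both had a similar number between 2 and 3, 54 in WT and 55 in the mutant. Between 3 and 5 the mutant had more peaks, 53 from 3 to 4 and 27 from 4 to 5, against 27 and 10 in WT. WT had a longer upper tail, with 49 peaks (29.5%) at 6 or above against 14 (7.78%) in the mutant. The lists were called separately, so the same value need not mean the same amount of bound ORC.

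**Figure D1:**
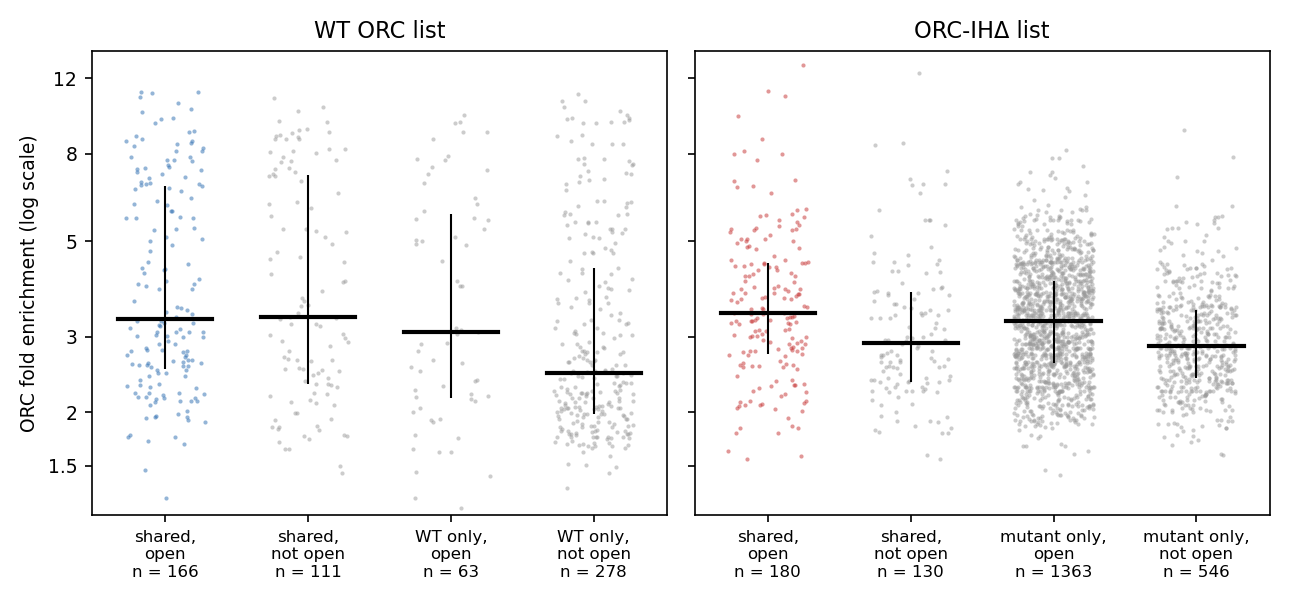
Fold enrichment (log scale) of every ORC peak in the WT list (left panel) and the ORC-IHΔ list (right panel), by whether it overlapped a peak of the other strain and an ATAC-seq region. Points are single peaks, thick bars are medians and thin bars are the middle 50% of the peaks, and the shared open peaks (coloured) had medians of 3.30 in WT and 3.40 in the mutant, with a longer upper tail in WT.

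Within the mutant list, shared peaks in open chromatin stood above shared peaks outside it. Their median of 3.40 compared with 2.90 (2.66 to 3.22, n = 130) for shared mutant peaks outside open chromatin, 3.26 (3.20 to 3.33, n = 1363) for mutant-only peaks in open chromatin and 2.86 (2.77 to 2.97, n = 546) for mutant-only peaks outside it. The intervals of the shared open and the mutant-only open peaks overlapped. In the WT list the shared peaks did not differ in this way, with medians of 3.30 inside and 3.32 (2.85 to 4.56, n = 111) outside open chromatin. WT-only peaks had medians of 3.08 (2.50 to 4.92, n = 63) inside and 2.47 (2.3 to 2.68, n = 278) outside. Shared open peaks were also wider than strain-only open peaks, with median widths of 454 bp in WT and 369 bp in the mutant, against 324 bp for WT-only and 265 bp for mutant-only peaks in open chromatin. Shared peaks outside open chromatin had a median width of 530 bp (376 to 600) in WT, where the interval for shared open peaks was 355 to 582, and of 230 bp (217 to 249) in the mutant. A wide peak meets a 1 bp overlap rule more readily, so width is not independent of the rule. Where higher peaks are also wider, fold enrichment is not independent of it either.

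In the 131 pairs, which compare the strains locus by locus, the mutant value was about as often above as below the WT value. The median fold enrichment was 3.08 in WT and 3.66 in the mutant, and the median of the mutant-to-WT ratios was 1.05 (0.941 to 1.23), with single ratios from 0.254 to 3.34. The mutant was at least 1.5-fold higher in 37 pairs (28.2%, Wilson interval 21.2 to 36.5), against 21.6% of all 232 such pairs in the genome, open or not. WT was at least 1.5-fold higher in 29 pairs (22.1%, 15.9 to 30.0), against 26.7% of all 232. Both intervals for open pairs held the share over all pairs.

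The 95 pairs in which neither peak lay in open chromatin leaned towards WT. There the median ratio was 0.834 (0.725 to 0.976), the mutant was at least 1.5-fold higher in 11 (11.6%, 6.59 to 19.6), and WT was at least 1.5-fold higher in 30 (31.6%, 23.1 to 41.5). The intervals of the mutant-higher share did not overlap between open and other pairs, and those of the WT-higher share did. Ranks within each list do not depend on the scale of either, but they do depend on which other peaks that list holds. They also differed between open and other pairs. In open pairs the mutant peak stood at a median percentile of 67.9 of its list and the WT peak at 53.6. In the other pairs these were 36.2 and 57.8. The mutant peak held the higher percentile in 59.5% (51.0 to 67.6) of the open pairs and in 38.9% (29.8 to 49.0) of the others. Over all 232 pairs the share was 50.9% (44.5 to 57.2), with an interval that overlapped both.

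**Figure D2:**
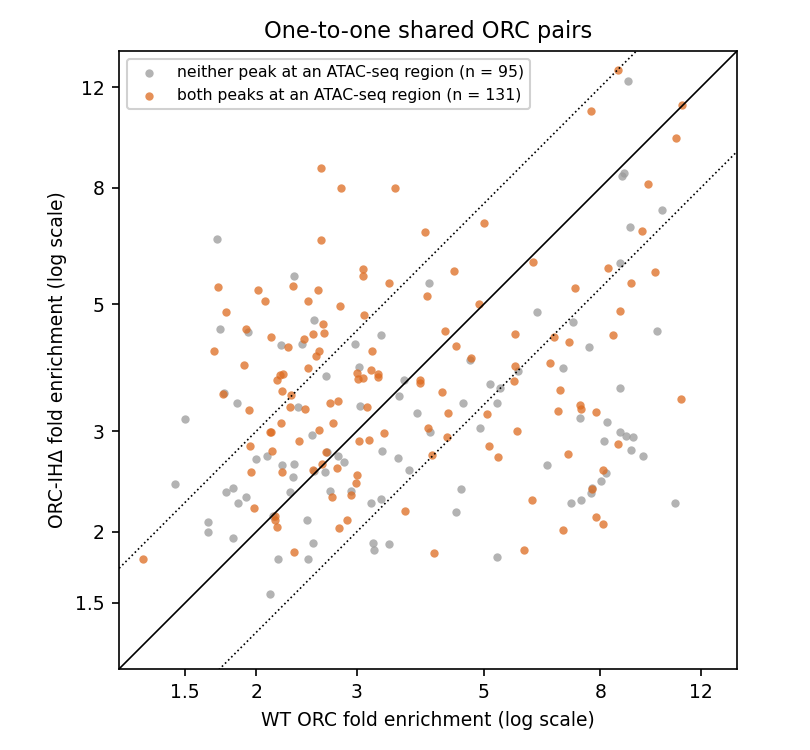
WT fold enrichment (x axis) against ORC-IHΔ fold enrichment (y axis), both on log scales, for loci with exactly 1 peak of each strain, 131 with both peaks in open chromatin (orange) and 95 with neither (grey). The solid line marks equal values and the dotted lines a ratio of 1.5, and 37 orange points lie above the upper dotted line while 29 lie below the lower one.

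In the open pairs the strength of a peak in WT said little about its strength in the mutant. Across the 131 pairs the fold enrichments had a Spearman correlation of 0.165 and a Pearson correlation of 0.242 on the log2 scale. In the 95 pairs with neither peak in open chromatin these were 0.291 and 0.326. All these pairs come from the same 2 lists, and the values are a description. The 44 open pairs with the lowest WT values had medians of 2.20 in WT and 3.60 (3.10 to 4.14) in the mutant. The middle 43 pairs had 3.08 in WT and 3.51 (2.93 to 3.79) in the mutant, and the 44 highest had 7.05 in WT and 3.92 (3.25 to 4.44) in the mutant. The mutant intervals of these groups overlapped although the WT medians differed more than 3-fold. The mutant was at least 1.5-fold higher in 26, 10 and 1 of these groups' pairs, and WT in 0, 2 and 27. The ratio contains the WT value that ranked the pairs, so this order of the counts is in part built in.

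Some loci kept a high value in both strains. The highest WT peak of all pairs, III:14116-15702, had a fold enrichment of 11.1 in WT and 11.2 over III:14448-15033 in the mutant. It was the top peak of the whole WT list. Chromosome III carries the silent mating-type loci near its ends, whose silencers are bound by ORC, and whether this peak lay at one of them was not tested. The pair on chromosome V had 10.8 over V:287075-287956 in WT and 9.79 over V:287176-287777 in the mutant. The pair on chromosome IV had 9.69 over IV:1502324-1503023 and 8.12 over IV:1502311-1502974. The ratios of all these pairs lay between 0.838 and 1.00, and the ATAC-seq fold enrichments of their regions were 3.54, 2.14 and 8.72. The open share of the WT peak was 20.2% on III, 22.4% on V and 72.1% on IV. For the mutant peak it was 54.6%, 32.9% and 78.0%. Most of the WT peaks on III and V thus lay outside open chromatin.

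The highest mutant value of all pairs was 12.9 over VI:255262-256695, where WT had 8.58 over VI:255565-256905, and this was the top peak of the whole mutant list. On chromosome XVI the mutant had 10.9 over XVI:694978-695835 and WT 7.70 over XVI:695118-696057. Other high WT peaks had mutant partners of lower value. XI:641661-642881 had 11.1 in WT, and the mutant peak inside it, XI:642424-642589, had 3.41, at percentile 60.1 of its list. VII:420826-421750 had 9.99 in WT and VII:420658-421004 had 5.70 in the mutant, which was still at percentile 96.9 of the mutant list, with midpoints 457 bp apart.

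The largest ratios came from short WT peaks of low value. On chromosome I, WT had 2.60 over I:151126-151376 and the mutant 8.67 over I:151045-151427, a ratio of 3.34 with midpoints 15 bp apart. This mutant peak was among the 5 highest of all pairs, while its WT partner was below the median of its list, at percentile 42.1. The next ratios were 3.13 (WT XIII:91836-92019 at 1.71, mutant XIII:91085-92235 at 5.36), 2.83 (WT XI:24964-25110 at 2.82, mutant XI:24879-25155 at 7.98) and 2.75 (WT IV:1162520-1162666 at 1.77, mutant IV:1161525-1162776 at 4.85). In all 4 the WT peak was under 300 bp wide and lay wholly inside its region and inside the mutant peak.

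The smallest ratios came from strong WT peaks. WT had 8.10 over XI:462450-462891 and the mutant 2.06 over XI:462529-462802, a ratio of 0.254 with midpoints 5 bp apart. The others were 0.269 (WT XIV:169427-169920 at 7.86, mutant XIV:169279-169445 at 2.12), 0.293 (WT XII:1063979-1064917 at 6.87, mutant XII:1064400-1064712 at 2.01) and 0.307 (WT IV:805876-806457 at 7.75, mutant IV:806141-806440 at 2.38). The chromosome XIV pair was also the one with the smallest overlap in the group.

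The pairs differed in where the peaks sat within open chromatin. Mutant peaks lay nearer to the centre of the ATAC-seq region than their WT partners in 95 of 131 pairs (72.5%, 64.3 to 79.4), and WT peaks in 35. The median distance from the peak's midpoint to the centre of the region was 248 bp (185 to 302) in WT and 118 bp (80.5 to 168) in the mutant. The median share of the peak that was open was 82.1% in WT and 97.4% in the mutant. The mutant midpoint fell inside a region in 118 pairs (90.1%, 83.8 to 94.1) and the WT midpoint in 99 (75.6%, 67.6 to 82.1). Of the 32 pairs with the WT midpoint outside open chromatin, the mutant midpoint was inside in 24 and nearer to the centre in 31. Choosing pairs by an outlying WT midpoint favours that result. Of the 99 pairs with the WT midpoint inside, the mutant midpoint was inside in 94 and nearer in 64 (64.6%, 54.8 to 73.4). The midpoints themselves were a median of 114 bp apart (87.5 to 140.5), within 100 bp in 61 pairs and over 300 bp in 17.

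Mutant peaks were the nearer ones whether or not they were wider. Median widths over all pairs were 370 bp in WT and 365 bp in the mutant, but this hid opposite differences. Among the 44 pairs with the lowest WT values the widths were 234 bp in WT and 356.5 bp in the mutant. Among the 44 with the highest they were 700.5 and 358 bp. The mutant midpoint was the nearer one in 45 of the 65 pairs in which the mutant peak was wider (69.2%, 57.2 to 79.1) and in 50 of the 66 in which it was not (75.8%, 64.2 to 84.5). Leaving out pairs within 10 kb of a chromosome end gave 89 of 124 (71.8%, 63.3 to 78.9). The count of midpoints inside a region did vary with width. Where the mutant peak was wider, 60 of 65 mutant midpoints and 57 WT midpoints were inside. Where it was not, 58 of 66 mutant midpoints and 42 WT midpoints were. In the 127 pairs whose peaks lay in the same region, the centre of the region was covered by 50.4% of the WT peaks and 63.8% of the mutant peaks. At 300 bp from the centre the shares were 30.7% and 29.5%, and at 500 bp they were 23.6% and 19.3%.

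**Figure D3:**
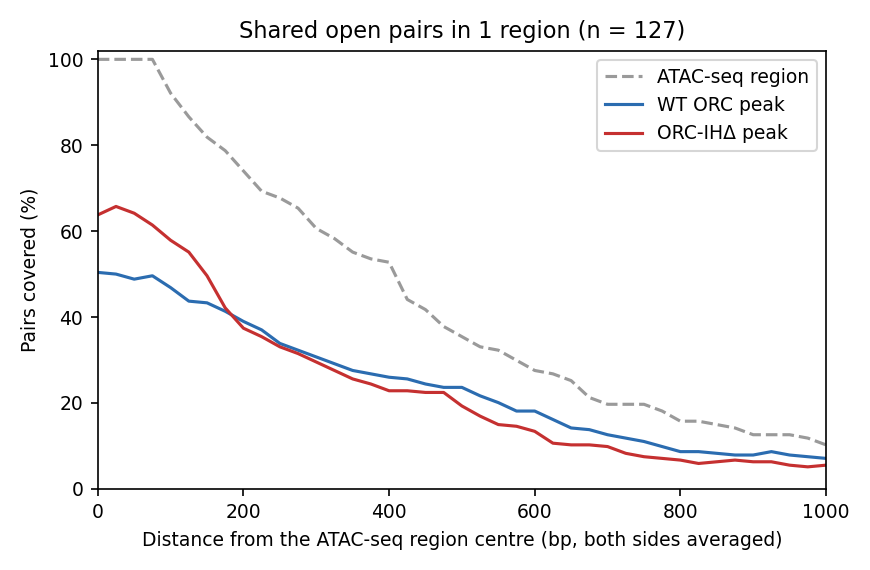
Share of the 127 pairs with both peaks in the same ATAC-seq region whose WT peak (blue), ORC-IHΔ peak (red) or region (dashed) covered a point at a given distance from the region's centre, averaged over both sides. The mutant curve stands above the WT curve at the centre (63.8% against 50.4%) and below it at 500 bp (19.3% against 23.6%).

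The width of the WT peak and the share of it that was open went with its strength. Among the 44 pairs with the highest WT values, the WT peaks were wide, with a median of 700 bp, only 59.3% of the peak was open, and 6 lay wholly inside a region. Among the 44 lowest, the WT median width was 234 bp, 100% of the peak was open, and 25 lay wholly inside. The open share was not separated from width, and the median open length was 380.5 bp in the highest group and 174 bp in the lowest. The distance of the WT midpoint from the region's centre showed no gradient. From the lowest to the highest WT group its medians were 276.5, 193.5 and 257.75 bp, with overlapping intervals. Across these groups, which were ranked by the WT value, the mutant partners showed no gradient in width or open share. From the lowest to the highest WT group, their median widths were 356, 367 and 358 bp. Their median open shares were 99.5%, 94.7% and 97.7%. Mutant peaks were not ranked by their own value, so a link between their position and their strength was not tested. The mutant midpoint was the nearer one in 31 of 44, 27 of 43 and 37 of 44 pairs. The last of these shares was 84.1% (70.6 to 92.1) and overlapped the others' intervals.

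The same contrast appeared over all shared open peaks, pairs or not, and was larger among peaks found in 1 strain only. Midpoints lay in a region for 69.3% (61.9 to 75.8) of the 166 WT peaks and 90.6% (85.4 to 94.0) of the 180 mutant peaks. For the strain-only peaks in open chromatin the shares were 61.9% (49.6 to 72.9) of 63 in WT and 97.8% (96.9 to 98.5) of 1363 in the mutant. Shared mutant peaks thus had their midpoint in a region less often than mutant-only open peaks. Their median distance to the centre was 142 bp (96.5 to 177.5) against 92 bp (85 to 99), with overlapping intervals, and their regions had a median width of 831 bp against 718 bp. Of the shared WT peaks, 97 reached past 1 edge of the region, 53 lay inside it and 16 covered it. Of the shared mutant peaks, 81 reached past 1 edge, 78 lay inside and 21 covered the region.

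The shared open peaks lay in 183 of the 2716 ATAC-seq regions, and these regions were wide and more open than most. Their median ATAC-seq fold enrichment was 4.00 (3.47 to 4.57), against 3.20 over all regions, 2.70 over the 1313 regions without an ORC peak and 2.53 over the 46 with WT-only peaks alone. It was close to the 4.13 of the 1167 regions that held only mutant-only ORC peaks, and the intervals overlapped. Their median width was 722 bp (580 to 835), against 619 bp for those mutant-only regions and 361 bp for regions without an ORC peak. A wide region is more likely to meet the rule. Both ATAC-seq lists held a peak in 155 of the 183 (84.7%, 78.8 to 89.2), against 77.4% of all regions. In those 155, the ratio of the labelled mutant to the labelled WT value had a median of 0.985 (0.948 to 1.02). If the labels are exchanged, the median is 1.02 (0.980 to 1.05), and both intervals hold 1.

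**Figure D4:**
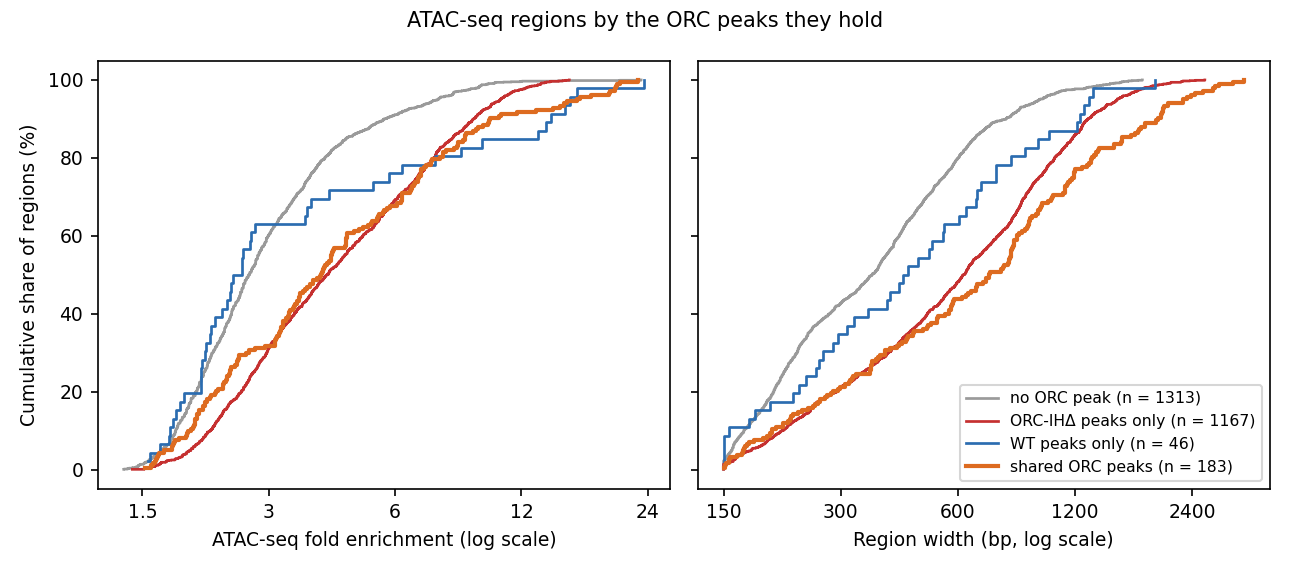
Cumulative share of ATAC-seq regions by fold enrichment (left, log scale) and width (right, log scale), for regions with shared open ORC peaks (orange, n = 183), only ORC-IHΔ peaks (red, n = 1167), only WT peaks (blue, n = 46) or no ORC peak (grey, n = 1313). The orange and red curves run close together in fold enrichment (medians 4.00 and 4.13), both to the right of the grey curve (median 2.70).

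The share of regions with a shared open peak rose less with openness than the share with mutant-only peaks. In 5 groups of nearly equal size, from the least to the most open, 6.25%, 4.24%, 5.52%, 7.0% and 10.7% of the regions held a shared open peak. The last share had an interval of 8.35 to 13.6 and the first 4.51 to 8.61. Regions with mutant-only peaks alone rose from 21.5% in the lowest group to 65.4% in the highest. With regions grouped by width instead, both shares rose. From the narrowest to the widest group, the share with a shared open peak went from 4.60% to 13.3%. The share with mutant-only peaks alone went from 25.7% to 67.6%. Within the pairs, ORC fold enrichment had no clear relation to the openness of the region, with Spearman correlations of -0.03 in WT and 0.07 in the mutant over 131 pairs.

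Many of these regions held more than the shared peaks. A mutant-only ORC peak was also present in 36 of the 183 (19.7%, 14.6 to 26.0), and a WT-only peak in 10. At least 2 mutant peaks of any kind lay in 43 (23.5%, 17.9 to 30.1), against 11.7% (9.94 to 13.6) of the regions with mutant-only peaks alone, which were narrower. The region with the most ORC peaks, X:453336-455360, held 4 WT peaks with fold enrichments of 2.29, 3.13, 1.62 and 2.57 and 3 mutant peaks at 3.31, 3.31 and 3.01. All but 1 of its peaks, the WT peak at 1.62, were shared. The region II:235432-238151 held WT peaks at 2.47 and 6.65 and mutant peaks at 5.07, 5.07 and 4.38, the middle one mutant-only. In IV:599591-602031 the shared WT peaks at 1.75 and 2.78 met a mutant peak at 2.72, while mutant-only peaks at 5.50 and 5.50 occupied the other side of the region. Equal values in these regions may be those of 1 called peak that was deposited in pieces.

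The most open of the 183 regions lay at chromosome ends. Yeast chromosome ends carry telomeric repeats and subtelomeric X and Y' elements, which contain matches to the origin consensus and bind ORC. Because ends share repeated sequence, reads from one end can also align to another, and how such reads were handled was not tested. The 3 highest regions were IX:439215-439925, at 22.7 (list labelled WT) and 20.3 (list labelled mutant), III:292-1168 at 20.6 and 19.0, and I:1-785 at 20.3 and 18.6. The 15 member-holding regions within 10 kb of an end had a median of 16.5, against 3.66 for the 167 elsewhere and 3.96 over all 69 regions near ends. Ends were taken as the first base and the largest position in any list.

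Of the shared open peaks on chromosomes, 14 of 165 in WT (8.48%, 5.12 to 13.7) and 17 of 179 in the mutant (9.50%, 6.01 to 14.7) lay within 10 kb of an end. Of the shared peaks outside open chromatin, 1 of 111 in WT and 9 of 130 in the mutant were near an end. Of the WT-only open peaks 8 of 62 were (12.9%, 6.69 to 23.4), with a median fold enrichment of 5.08, and of the mutant-only open peaks 19 of 1361 (1.40%, 0.896 to 2.17). The 14 WT peaks lay at 14 different ends, with fold enrichments of 4.09 to 8.41 and a median of 6.25 (5.65 to 7.34), against 3.14 (2.88 to 3.64) for the 151 elsewhere. The shared open mutant peaks went the other way, with a median of 2.36 (2.01 to 3.00) near ends and 3.53 (3.28 to 3.84) elsewhere. The 9 shared mutant peaks near ends but outside open chromatin had a median of 3.46 (2.55 to 4.41), an interval that overlapped that of the shared open mutant peaks there. The 14 WT peaks were also long, with a median width of 1365 bp against 404 bp elsewhere.

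**Figure D5:**
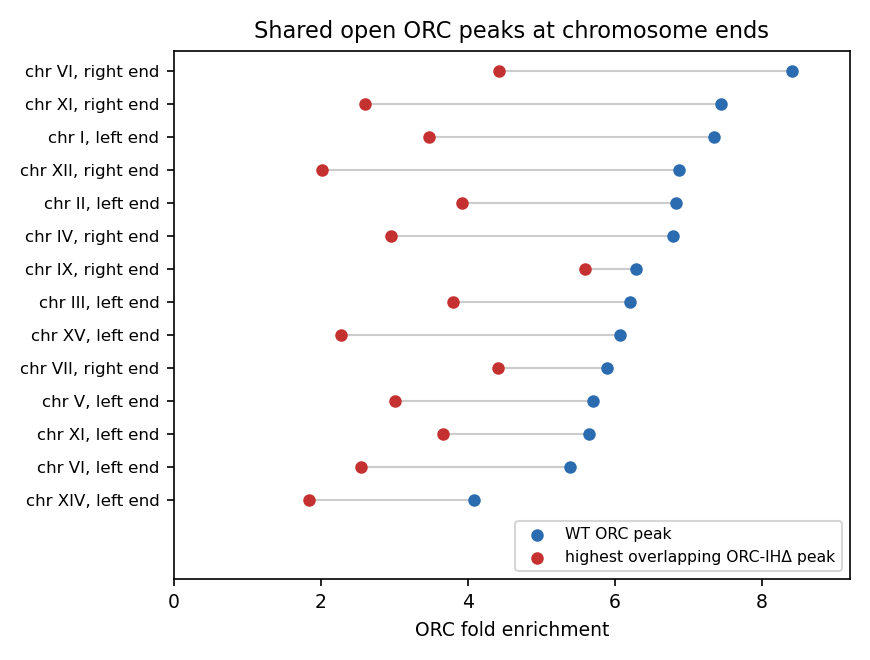
Fold enrichment (linear x axis) of the 14 shared open WT ORC peaks within 10 kb of a chromosome end (blue) and of the highest mutant ORC peak that overlaps each (red), ordered by the WT value. Every red point lies to the left of its blue point, with red values from 1.84 to 5.60 and blue values from 4.09 to 8.41.

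At all 14 ends the WT peak was higher than every mutant peak that overlapped it, and at 12 of them by at least 1.5-fold. The ratio of the highest mutant peak to the WT peak had a median of 0.50, from 0.293 at the right end of chromosome XII to 0.890 at the right end of chromosome IX. At the left end of chromosome I, WT had 7.34 over I:143-1569, and the highest of 2 mutant peaks had 3.46. At the right end of chromosome XI, WT had 7.44 over XI:664773-666158 and the highest mutant peak 2.60. At the right end of chromosome VI, WT had 8.41 over VI:269423-270117 and the single mutant peak 4.43.

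Strong WT peaks elsewhere also tended to have weaker mutant partners. Of the 39 shared open WT peaks away from ends within the same WT range of 4.09 to 8.41, a comparison chosen after the end values were seen, 34 were higher than every overlapping mutant peak, 21 of them by at least 1.5-fold. The median ratio there was 0.635, from 0.254 to 1.41. The median of the highest mutant value was 3.54 in these and 3.23 at the ends. The 6 end loci that were pairs had a median ratio of 0.488 (0.293 to 0.648), and the 124 other chromosomal pairs 1.12 (0.955 to 1.26). The 19 mutant-only open peaks near ends had a higher median than the shared open mutant peaks there, 3.79 (2.85 to 4.33) against 2.36 (2.01 to 3.00), with overlapping intervals.

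Shared open peaks were found on all nuclear chromosomes. Chromosome III had the densest set, with 2.84 WT peaks per 100 kb of listed length, and 9 of its 19 WT peaks (47.4%) and 10 of its 59 mutant peaks (16.9%) belonged to it. Chromosome XV had the sparsest, with 0.641 WT peaks per 100 kb, 7 of 38 WT peaks and 8 of 220 mutant peaks. One pair lay on the 2-micron plasmid, a multicopy circle with its own origin. It had the lowest WT value of all shared open peaks, 1.26 over positions 4284 to 4748, and 1.79 over positions 4252 to 4567 in the mutant, inside a region with an ATAC-seq fold enrichment of 9.33.

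Unshared ORC peaks of either strain were common nearby. A mutant-only peak lay within 1000 bp of 73 of the 166 WT shared open peaks (44.0%, 36.6 to 51.6), near the 47.7% (38.7 to 57.0) of shared WT peaks outside open chromatin and above the 30.2% (20.2 to 42.4) of WT-only open peaks, with overlapping intervals. A WT-only peak lay within 1000 bp of 36 of the 180 mutant shared open peaks (20.0%, 14.8 to 26.4), against 7.63% (6.34 to 9.16) of mutant-only open peaks, with intervals that did not overlap. Of the shared mutant peaks outside open chromatin it was 14.6% (9.56 to 21.7), with an interval that overlapped that of the shared open peaks.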

How the data were processed

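Peak lists of 4 samples were used. Alignment and peak calling were done by the authors, who deposited 1 list per sample. Their processing notes name Bowtie 1.2.2, Bowtie2 2.3.4.1, SAMtools 1.3.1, bedtools 2.27.1, Picard, MACS2 2.1.1.20160309 and the build sacCer2, without order. The deposited fold enrichment is a linear ratio over background. The deposited −log10 p and q values were used only for alternatives, and the deposited score was not used. By their names, the ORC lists hold common peaks without those at RNA genes. In the ORC lists 11 WT and 17 mutant shared open peaks share a peak name with another line, whose value may be that of the whole peak, and the listed summit lies outside the interval in 18 and 20, so midpoints were used. Peaks were not placed on genes.

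Each ATAC-seq region took the highest value of its peaks. Shares have Wilson intervals and medians have binomial order-statistic intervals, both at 95%. Reads per library are unknown, so neither covers depth. Loci were named by rule: among pairs the 5 highest values of each strain, the 4 largest and 4 smallest ratios, the 3 regions with the highest ATAC-seq values, the 3 with the most ORC peaks, and those next to the overlap threshold. Single ends were named after their values were seen. The members and lists were chosen with earlier results of these data known. The search for shared open peaks was tested on simulated data. Alternatives are given in the closing section. The libraries of the other assays were not analysed here. The tools were networkx 3.6.1, pandas 2.3.3, numpy 2.4.6, matplotlib 3.10.9 and scipy 1.17.1 under Python 3.11.15.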

Additional observations from a re-analysis of the deposited data

How the results depend on the processing

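A stricter overlap was the choice that changed the set most. With a reciprocal overlap of at least 50% between the strains, 74 WT and 74 mutant peaks remained, in 74 pairs and 79 regions. The midpoints were then a median of 70.2 bp apart, and 29.1% of the regions also held a mutant-only peak. In these pairs 87.8% (78.5 to 93.5) of the WT midpoints and 89.2% (80.1 to 94.4) of the mutant midpoints lay in a region. The strain difference in midpoints inside a region was thus nearly absent under this setting. The mutant midpoint was still the nearer one to the centre in 68.9% (57.7 to 78.3) of these pairs. Joining pieces with the same peak name moved the midpoint distance to 144.5 bp, and requiring the midpoint in a region lowered the median WT fold enrichment to 3.01. Of 96 values of 12 results under the other settings chosen first, 88 stayed within their interval or within 1.5 times the count and 8 did not. The results on position and chromosome ends, and the use of a single ATAC-seq list for every result, were added after seeing the data, and 60 of these 61 values stayed. The share of pairs with the mutant peak nearer to the centre kept its direction in all of them. No paired analysis was possible because each strain has a single list for each assay, and no library could be left out because the lists combine them. Without reads, missing peaks cannot be told apart from peaks below the calling threshold.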
